A study of Mus musculus with 15 samples.

Results

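The 8 mouse genes described here were Adcy10, Col9a3, Sorcs2, Slc34a2, Plcxd1, Hhipl1, Nfe2l3 and Rgs16, taken by symbol from the 16330 genes of a liver expression table. They were chosen by their normalized counts, for being low in water livers and high only in ethanol livers that carried luciferase. Their levels in the ethanol comparisons are therefore given as a description, without a test. All 8 were among the 13570 genes tested, meaning that they reached 10 normalized counts in at least 3 libraries. Adcy10 and Nfe2l3 reached that minimum in 3 libraries, the same 3 that chose them. Col9a3 and Sorcs2 reached it in 4 libraries, of which 1 lay outside luciferase ethanol. Without the luciferase ethanol group none of these genes would have been tested. Near silent after water were Adcy10, Col9a3, Sorcs2 and Nfe2l3, with luciferase water means from 3.10 for Col9a3 to 9.71 for Sorcs2. Slc34a2, Hhipl1 and Plcxd1 were low rather than near silent, at means of 27.0, 30.1 and 39.5 normalized counts. Outside luciferase ethanol they reached 10 normalized counts in 11, 11 and 12 of 12 libraries. Rgs16 was not low, averaging 987 normalized counts in luciferase water livers, and stood above 89.7% of 15483 genes per kilobase of exon.

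The study measured liver RNA of mice that expressed luciferase, a control enzyme, or LbNOX, a bacterial water-forming NADH oxidase that lowers the ratio of NADH to NAD+. Mice were gavaged with ethanol or with water, and livers were taken 6 hours later. There were 3 luciferase ethanol libraries (M10 to M12), 5 luciferase water libraries (M1 to M5), 3 LbNOX ethanol libraries (M13 to M15) and 4 LbNOX water libraries (M6 to M9). Whether each library came from a separate animal is not given in the sources used here, and p-values measure the spread between libraries, which may be technical. Strain, sex, age, ethanol dose and the vector of either construct are also not given. The series' own design note speaks of ChREBP animals beside wild types, whereas every sample label gives luciferase or LbNOX, which was followed. Recovered depth was 12.2 to 14.4 M reads (M, 10 to the power 6) in luciferase ethanol, 14.5 to 23.7 M in luciferase water, 10.6 to 15.7 M in LbNOX ethanol and 13.7 to 20.6 M in LbNOX water libraries.

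The 8 genes do not form a pathway. Adcy10 encodes soluble adenylyl cyclase, which makes cAMP inside the cell in answer to bicarbonate and is best known from sperm. Rgs16 encodes a GTPase-activating protein that shortens signalling by heterotrimeric G proteins, and Plcxd1 a protein with the X domain of phosphoinositide phospholipases C. Sorcs2 is a sorting receptor of the VPS10 family best known from neurons, and Slc34a2 is the sodium phosphate cotransporter NaPi-IIb of lung and small intestine. Col9a3 encodes a chain of type IX collagen of cartilage, Hhipl1 a secreted relative of the hedgehog-interacting protein, and Nfe2l3 a transcription factor of the cap'n'collar (CNC) family. Ethanol is oxidized in hepatocytes by enzymes that turn NAD+ into NADH, and ChREBP is a transcription factor that answers to sugar phosphates.

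Promoter windows were taken from RefSeq (build GRCm38.p6, 250 bases before to 50 after a transcription start) and matched 6 of the 8 genes with 7 windows; Col9a3 and Sorcs2 had no entry. 4 windows are shown because they show how unlike these promoters are: Adcy10 had the largest ratio of luciferase ethanol to luciferase water levels, Rgs16 was the gene expressed throughout, Plcxd1 held an E-box in the downstream of its 2 windows, and Nfe2l3 encodes a transcription factor. Capitals mark the motifs searched on both strands, namely the E-box core CACGTG, the cAMP response element TGACGTCA, the CCAAT box, the TATA box TATAAA and the GC box GGGCGG; the 2 GC boxes of Rgs16 begin 5 bases apart and overlap. The windows are Adcy10 at chr1:165484933-165485232, Plcxd1 at chr5:110100309-110100608, Nfe2l3 at chr6:51432419-51432718 and Rgs16 at chr1:153740103-153740402, all on the plus strand.
Adcy10: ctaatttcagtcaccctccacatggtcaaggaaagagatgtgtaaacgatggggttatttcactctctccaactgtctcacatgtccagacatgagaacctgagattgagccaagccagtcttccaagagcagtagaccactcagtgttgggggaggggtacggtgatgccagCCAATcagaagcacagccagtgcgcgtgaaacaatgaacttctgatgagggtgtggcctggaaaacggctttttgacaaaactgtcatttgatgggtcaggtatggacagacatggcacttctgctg
Plcxd1: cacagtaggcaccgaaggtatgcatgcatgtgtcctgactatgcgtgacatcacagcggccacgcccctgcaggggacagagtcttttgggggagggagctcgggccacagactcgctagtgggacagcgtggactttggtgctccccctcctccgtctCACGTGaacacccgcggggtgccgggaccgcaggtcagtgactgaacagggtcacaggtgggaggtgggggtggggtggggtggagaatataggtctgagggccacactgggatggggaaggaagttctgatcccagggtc
Nfe2l3: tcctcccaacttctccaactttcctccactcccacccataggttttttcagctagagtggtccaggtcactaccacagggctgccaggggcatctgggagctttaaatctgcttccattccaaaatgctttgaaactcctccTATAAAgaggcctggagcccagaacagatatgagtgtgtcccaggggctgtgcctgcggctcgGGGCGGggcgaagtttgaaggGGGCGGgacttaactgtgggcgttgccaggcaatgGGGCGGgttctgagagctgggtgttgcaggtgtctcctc
Rgs16: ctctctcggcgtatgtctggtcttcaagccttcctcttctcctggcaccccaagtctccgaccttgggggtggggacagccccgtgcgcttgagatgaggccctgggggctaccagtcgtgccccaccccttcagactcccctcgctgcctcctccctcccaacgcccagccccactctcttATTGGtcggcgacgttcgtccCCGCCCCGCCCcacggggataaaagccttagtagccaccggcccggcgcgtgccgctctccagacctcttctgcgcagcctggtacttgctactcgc
The E-box core stood in 1 of the 7 windows, the downstream window of Plcxd1, beginning 91 bases before that start, and in 7.15% of 32851 windows of the same length. CCAAT stood in 3 windows (Adcy10, Hhipl1 and Rgs16) beginning 68 to 81 bases before the start, against 37.4% of all windows. The other window of Plcxd1, at chr5:110099719-110100018, held none of the motifs. TATAAA was found once, in Nfe2l3, against 13.6% of all windows. GGGCGG stood in the windows of Nfe2l3, with 3 copies, and Rgs16, with 2 on the minus strand, against 35.7% of all windows. TGACGTCA was in none of the 7, against 1.79% of all windows. No motif was common to all of them, and the GC content of the 7 windows ran from 49.3% to 68.7%, around a median of 52.7% over all windows.

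A property of 2 libraries touches every ethanol value below. In M10 and M12, but not in M11, the small intestine markers Alpi, Sis and Vil1 were high. Alpi, the intestinal alkaline phosphatase, had 277, 0 and 170 normalized counts in M10, M11 and M12, against 0 to 0.831 in luciferase water libraries. Sis, sucrase-isomaltase, had 29.0, 0 and 17.4 normalized counts in the same 3 libraries and 0 in every luciferase water library. Vil1, villin, had 81.1, 3.5 and 56.1, against 1.00 to 11.6 in luciferase water. LbNOX water libraries M7 and M8 also held Alpi, at 36.7 and 4.62 normalized counts, and Sis, at 3.91 and 3.08. Of 8 small intestine markers, 7 were in the table and 1, Lct (lactase), passed the test between luciferase ethanol and luciferase water (limma adjusted p = 0.0454). The summed level of the list was 5484 to 6788 in luciferase ethanol and 4626 to 9173 in luciferase water libraries, since Apoa4 and Fabp2, which the liver also makes, carry most of it. Each gene's level in M11, which had no read of Alpi or Sis, is therefore given apart. M11 was not without every scarce marker of the list. Lct had 26.6, 8.16 and 31.2 normalized counts in M10, M11 and M12, against 0 to 13.99 in luciferase water, where M5 was highest. Muc2, also on the list, had 9.68, 1.17 and 4.99 in M10, M11 and M12, the value in M11 being 1 read. It had 0 in every luciferase water library and 6.57 in LbNOX water library M6. The part of intestinal RNA in the levels of M10 and M12 was not tested. In bulk tissue, fewer cells of a type and less RNA per cell cannot be told apart.

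Adcy10 had the largest ratio of the 8 genes. It had 710, 289 and 580 normalized counts in luciferase ethanol libraries M10, M11 and M12, against 8.39, 2.73, 0.831, 7.04 and 3.0 in luciferase water libraries M1 to M5. In LbNOX livers it had 2.77, 0 and 0 after ethanol and 0, 6.25, 0 and 2.52 after water. The 3 luciferase ethanol libraries stood far above the 12 others, 4 of which held no read of it and the highest of which held 14. The means were 526 ± 216 (SD, n = 3) in luciferase ethanol and 4.40 ± 3.18 (SD, n = 5) in luciferase water, a ratio of 120, and the log2 difference was 6.74 (SE 0.77). Per kilobase of exon Adcy10 stood above 57.7% of genes in luciferase ethanol and above 6.75% in luciferase water. In LbNOX ethanol the whole signal was 2 reads, against 1300 reads in luciferase ethanol, a rate ratio of 0.00149 with an exact 95% interval of 0.00018 to 0.00539 that covers counting error only. M11, where Alpi and Sis had no read, held 65.8 times the luciferase water mean. Log2 differences of this and the other scarce genes depend on the pseudocount of 1, and that of Adcy10 was 5.79 with a pseudocount of 5.

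Rgs16 was the opposite case, already abundant. It had 6918, 5678 and 6694 normalized counts in luciferase ethanol, against 749, 1556, 232, 1083 and 1316 in luciferase water. LbNOX livers had 541, 1243 and 150 after ethanol, against 1493, 1665, 263 and 1381 after water. The luciferase ethanol libraries were close together, while the other 12 spread over an 11.1-fold range. Luciferase ethanol averaged 6430 ± 661 (SD, n = 3) and luciferase water 987 ± 517 (SD, n = 5), a ratio of 6.51 and a log2 difference of 2.95 (SE 0.77). M11 alone held 5.75 times the luciferase water mean. Rgs16 therefore had the smallest ratio of the 8 and the smallest spread within luciferase ethanol, 1.22-fold between its highest and lowest library. An antisense transcript, Gm28513, shares 10.1% of its exon bases.

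Plcxd1 had 713, 292 and 469 normalized counts in luciferase ethanol, against 47.4, 35.4, 24.1, 52.8 and 38.0 in luciferase water. LbNOX livers had 42.9, 72.8 and 38.7 after ethanol, against 50.9, 42.2, 27.7 and 52.9 after water. Again the 3 luciferase ethanol libraries lay above the rest, and the other groups overlapped. The log2 difference between luciferase ethanol and luciferase water was 3.56 (SE 0.34), the most precise of the 8, for a ratio of 12.4, and M11 alone held 7.37 times the luciferase water mean. Plcxd1 shares 29.3% of its exon bases with Gtpbp6 on the opposite strand, and whether counting used strand is not given in the sources used here, so its level is uncertain by an amount that was not tested. Gtpbp6 itself averaged 178 ± 57.0 in luciferase ethanol (SD, n = 3) and 107 ± 35.4 in luciferase water (SD, n = 5) and did not pass the test (log2 difference 0.75, limma adjusted p = 0.202).

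**Figure D1:**
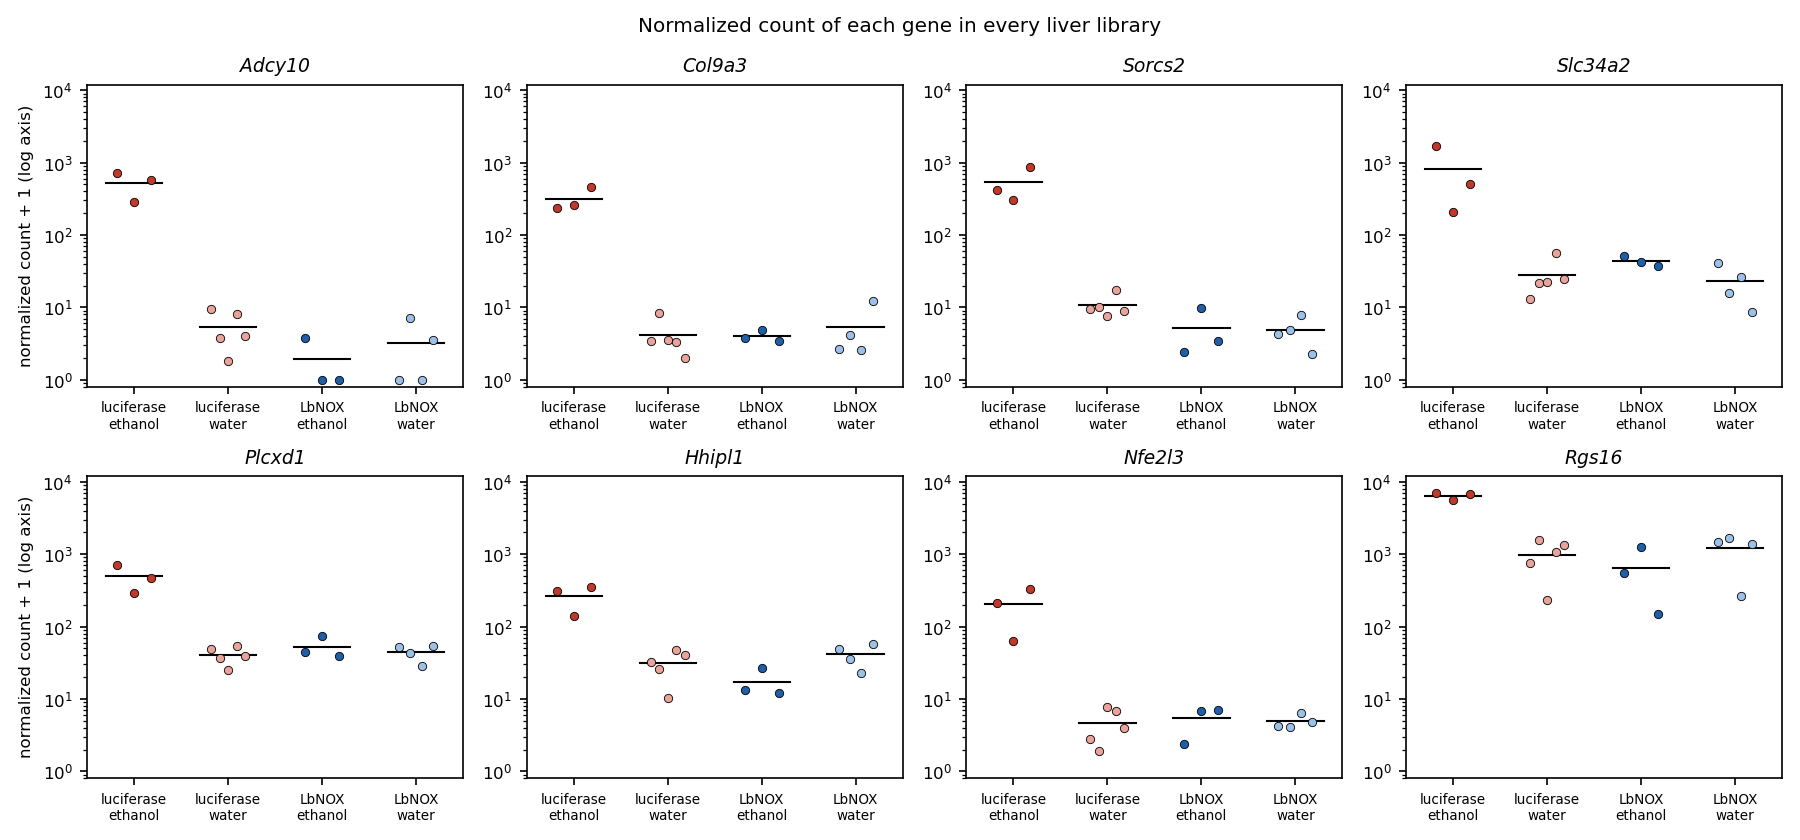
Normalized count plus 1 (log axis) of each gene in all 15 libraries, with 1 point per library and a bar at the mean of its group. In every panel the 3 luciferase ethanol points lie above the 12 others, and Rgs16 differs from the rest by its level of 150 or more in the other groups.

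The membrane proteins Sorcs2 and Slc34a2 came next. Sorcs2 had 418, 308 and 875 normalized counts in luciferase ethanol, against 8.39, 9.09, 6.65, 16.4 and 8.0 in luciferase water. After LbNOX it had 1.38, 8.85 and 2.42 with ethanol, against 3.29, 3.91, 6.93 and 1.26 with water. Luciferase ethanol and luciferase water differed by 5.56 on the log2 scale (SE 0.53), a ratio of 54.9, with M11 alone at 31.7 times the luciferase water mean. LbNOX water lay below luciferase water on average, at 0.396 times its mean, a comparison taken up below.

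Slc34a2 was the most uneven gene. Its luciferase ethanol libraries held 1709, 208 and 512 normalized counts, against 12, 20.9, 21.6, 56.3 and 24.0 in luciferase water. In LbNOX livers it had 49.8, 41.3 and 36.3 after ethanol, against 39.4, 14.8, 25.4 and 7.56 after water. The 8.23-fold spread within luciferase ethanol was the widest of the 8 genes, and M10, its highest library, was also the highest for Alpi and Sis. Small intestine is a known site of Slc34a2. In M11, without a read of Alpi or Sis, Slc34a2 stood at 7.70 times the luciferase water mean and at 3.69 times the highest of the 12 other libraries. The LbNOX water library M7 held 36.7 normalized counts of Alpi with 14.8 of Slc34a2. Over all 3 libraries the luciferase ethanol mean of 810 ± 794 (SD, n = 3) was 30.0 times that of luciferase water, 27.0 ± 17.0 (SD, n = 5), and the log2 difference was 4.52 (SE 0.62).

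The secreted proteins Col9a3 and Hhipl1 differed in their starting level. Col9a3 had 237, 255 and 462 normalized counts in luciferase ethanol, against 2.40, 7.27, 2.49, 2.35 and 1.00 in luciferase water. LbNOX livers had 2.77, 3.93 and 2.42 after ethanol and 1.64, 3.13, 1.54 and 11.3 after water. It was the gene in which M11 was not the lowest luciferase ethanol library, and M11 held 82.3 times the luciferase water mean, against a ratio of 103 over all 3 libraries (log2 difference 6.38, SE 0.57).

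Hhipl1 had 310, 138 and 345 normalized counts in luciferase ethanol, against 31.2, 24.5, 9.14, 45.7 and 40.0 in luciferase water. LbNOX ethanol libraries held 12.5, 25.6 and 10.9, against 47.7, 35.2, 21.6 and 56.7 in LbNOX water. Both LbNOX groups overlapped luciferase water. The ratio of luciferase ethanol to luciferase water was 8.77 (log2 difference 3.16, SE 0.50), and M11 alone held 4.57 times the luciferase water mean, the lowest such ratio of the 8.

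The transcription factor gene Nfe2l3 had 209, 61.8 and 332 normalized counts in luciferase ethanol, against 1.80, 0.909, 6.65, 5.86 and 3.00 in luciferase water. In LbNOX livers it had 1.38, 5.90 and 6.05 after ethanol, against 3.29, 3.13, 5.39 and 3.78 after water. It was the least abundant of the 8 in luciferase ethanol, and its ratio of 55.1 was close to the 54.9 of Sorcs2 (log2 difference 5.33, SE 0.62). M11 alone held 17.0 times the luciferase water mean.

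Across the set, all 3 luciferase ethanol libraries exceeded the 12 others for 8 of 8 genes. That pattern was what chose them, and 4.99% of all tested genes had it. M11 was the lowest luciferase ethanol library for 7 of the 8, and the highest was M10 for 4 and M12 for 4. M11 was also the lowest of the 3 for the other genes called higher in luciferase ethanol. Their median log2 difference from the luciferase water mean was 1.16 in M10, 0.806 in M11 and 1.02 in M12. The same order held for the ChREBP target list, 20 tested genes mostly of sugar and lipid metabolism. Its median was 1.96 in M10, 1.42 in M11 and 1.67 in M12. Of those targets, 18 rose in luciferase ethanol against luciferase water, where 4.62% of all genes were higher; 2 did so with M11 as the lone luciferase ethanol library, whose spread is then assumed to be that of the other groups.

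With LbNOX, most of the 8 genes stayed within their water range after ethanol, which choosing genes high in luciferase ethanol only made likely. For 6 of the 8, all 3 LbNOX ethanol libraries fell within the range of the 9 water libraries; the exceptions were Plcxd1, higher in M14, and Rgs16, lower in M15. Between LbNOX ethanol and LbNOX water, 0 of 8 genes had groups that did not overlap, a count not unusual at the shares over all genes. Of all genes, 5.42% lay wholly higher and 5.49% wholly lower, and 0.00737% passed the limma test there. The log2 differences ran from -1.26 (SE 0.52) for Hhipl1 to 1.14 (SE 0.65) for Slc34a2, and the ratios of means from 0.405 to 1.95 for the same genes. LbNOX ethanol livers were below luciferase ethanol livers by log2 differences from -8.31 for Adcy10 to -3.19 for Plcxd1, in a comparison where 3.82% of all genes were called lower. Both comparisons share libraries with the ones above and with the choice of the genes, and no test is given.

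After water alone, LbNOX and luciferase livers were set side by side for the 8 genes. Low water levels were part of the choice, so these values too are a description without a test. The log2 differences, LbNOX water minus luciferase water, ran from -1.22 (SE 0.49) for Sorcs2 to 0.50 (SE 0.46) for Hhipl1. Sorcs2 had 3.85 ± 2.35 normalized counts in LbNOX water (SD, n = 4) and 9.71 ± 3.86 in luciferase water (SD, n = 5), on 19 and 54 reads in all, and the 2 groups overlapped. Over all 13570 genes, limma called none between LbNOX water and luciferase water (0.0%), with 440 at an unadjusted p below 0.05, while edgeR on recovered reads called 0 and DESeq2 called 18.

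Library by library, Rgs16 also moved outside the ethanol group. The ChREBP list median was lowest in M3 (-0.58), M15 (-0.38) and M8 (-0.26), which belong to luciferase water, LbNOX ethanol and LbNOX water. Rgs16 had its 3 lowest values in those libraries, at most 263 normalized counts, against at least 541 in the other 9. Hhipl1 and Plcxd1 each shared 2 of their 3 lowest libraries with the list. Col9a3 and Sorcs2 shared 1 of 3, and Slc34a2 and Nfe2l3 shared 0 of 3. For Adcy10 the number is not defined, since M6, M8, M14 and M15 all stood at 0. Of these, M8 and M15 are among the lowest of the list, and M6 and M14 are not. This is a description of 12 libraries chosen after their values were seen, with no test.

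**Figure D2:**
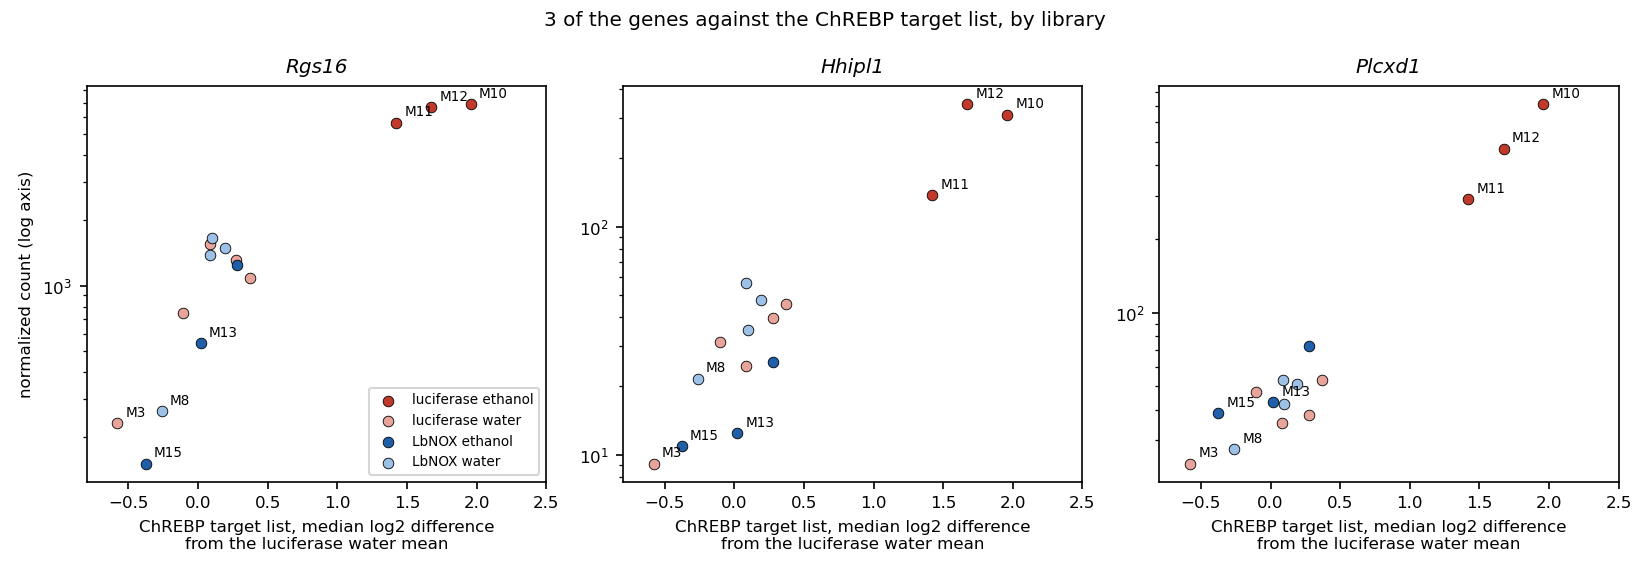
Normalized count (log axis) of Rgs16, Hhipl1 and Plcxd1 against the median log2 difference of the 20 ChREBP targets from the luciferase water mean, with 1 point per library. M10, M11 and M12 lie at 1.42 or more on the horizontal axis, and the lowest Rgs16 points are M3, M8 and M15.

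Relatives of the 8 genes showed whether whole families moved. Of 118 listed relatives, 101 were in the table and 83 were tested; 7 rose and 3 fell in luciferase ethanol against luciferase water, where 4.62% of all genes were higher and 3.13% lower. Their median log2 difference was -0.01, against 0.01 for all genes. With M11 as the lone luciferase ethanol library, 1 rose and 0 fell.

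In the cAMP list, 2 of 34 tested genes rose and 1 fell. Adcy9, a membrane adenylyl cyclase, had 511, 313 and 368 normalized counts in luciferase ethanol, against 145 to 239 in luciferase water (log2 difference 1.07, SE 0.19, limma adjusted p = 0.00289). Adcy5, another membrane cyclase, had 39.9, 31.5 and 39.9, against 9.99 to 19.9 (1.296, SE 0.33, adjusted p = 0.0264). Rapgef4, the cAMP-binding exchange factor Epac2, had 1176, 2126 and 2110, against 2446 to 3300 (-0.63, SE 0.18, adjusted p = 0.0400). Adcy5 lost its call without M2, M5, M10, M11 or M12 (adjusted p 0.0502 to 0.115), and Rapgef4 without any of 10 libraries, M10 above all (adjusted p 0.0505 to 0.208). With only the groups compared, Adcy5 (0.0758) and Rapgef4 (0.128) were also lost, as was Rapgef4 without a mean-variance trend (0.0575) and by edgeR (0.0548). Pde4a did not pass (0.86, SE 0.27, limma adjusted p = 0.0684). It was called higher by DESeq2 (0.86, adjusted p = 0.0297) and by limma without M4 (1.01, adjusted p = 0.0259).

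Maff, a small Maf protein that pairs with CNC factors such as the product of Nfe2l3, had 413, 278 and 292 normalized counts in luciferase ethanol, against 38.4, 60.0, 68.2, 45.7 and 61.0 in luciferase water. LbNOX livers had 80.3, 36.4 and 54.4 after ethanol and 38.6, 43.0, 62.4 and 49.1 after water. Its log2 difference in luciferase livers was 2.57 (SE 0.27, limma adjusted p = 7.89e-05), and the ethanol effect with LbNOX was lower than with luciferase by a log2 difference of -2.38 (SE 0.40, adjusted p = 0.00847), a test that called 1.25% of all genes lower. Nfe2l1, the CNC factor closest in kind to Nfe2l3, fell, at 1391, 1689 and 1726 in luciferase ethanol against 2120 to 3424 in luciferase water (-0.69, SE 0.15, adjusted p = 0.00888, or 0.0693 without M10). The other 7 tested CNC and Maf genes did not pass, though DESeq2 called Mafg lower (-0.42, adjusted p = 0.0309).

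Col9a2, the partner chain of Col9a3 in type IX collagen, had 70.2, 45.5 and 36.1 normalized counts in luciferase ethanol, against 4.80, 19.1, 0.831, 2.35 and 8.0 in luciferase water. With LbNOX it had 4.15, 3.93 and 3.63 after ethanol, against 25.5, 14.1, 7.70 and 10.1 after water, and those 2 groups did not overlap. Their difference did not pass (-1.51, SE 0.67, limma adjusted p = 0.410), and the ethanol values rest on 3, 4 and 3 reads. Of all genes, 5.49% lay wholly lower in LbNOX ethanol than in LbNOX water. The log2 difference in luciferase livers was 3.11 (SE 0.64, limma adjusted p = 0.00795) and the ethanol effect with LbNOX was lower by -4.62 (SE 0.92, adjusted p = 0.0247). Without M10 the adjusted p values were 0.0592 and 0.0947, and the second was also lost without M6, M7, M12, M13 or M15 (0.0540 to 0.0705).

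Slc20a2, a sodium phosphate cotransporter of another family than Slc34a2, rose slightly, with 2221, 1887 and 2156 normalized counts in luciferase ethanol, against 1515 to 1714 in luciferase water (0.37, SE 0.09, limma adjusted p = 0.0263). Its ethanol effect with LbNOX was lower by -0.58 (SE 0.14, adjusted p = 0.0476). The first was lost without M10 or M12 (0.104 to 0.134), and the second without any library but M8 and M11 (0.0542 to 0.141). The first was also lost with only the groups compared (0.106), and the second with quantile normalization (0.0794), without a mean-variance trend (0.0677) and without a filter (0.0609). In the phospholipase C list, Plcl1 (1.34, SE 0.35, adjusted p = 0.0298) and Plcl2 (0.41, SE 0.11, adjusted p = 0.0339), which are related to phospholipase C but lack its activity, rose among 14 tested. Plcxd2, the closest relative of Plcxd1 in the list, fell (-0.82, SE 0.22, adjusted p = 0.0365). All 3 lost their call without M10 (0.101 to 0.133), without M2 (0.0542 to 0.0691), without M5 (0.0570 to 0.0593) or without M12 (0.134 to 0.175); Plcl1 also without M1 (0.0586), Plcl2 without M3 (0.0617) or M6 (0.0508), and Plcxd2 without M3, M4 or M11 (0.0630 to 0.0896). With only the groups compared, Plcl2 (0.105) and Plcxd2 (0.0823) were lost too, and Plcxd2 also without a mean-variance trend (0.0549).

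The other families held no limma call in luciferase ethanol against luciferase water. None of 9 tested RGS genes passed, with a median log2 difference of -0.42, though DESeq2 called Rgs3 lower (-0.97, adjusted p = 0.0334). Rgs8, the measured neighbour of Rgs16 on its left, was not tested; it had 10.9, 28.0 and 9.97 normalized counts in luciferase ethanol, against 0.599, 9.997, 0, 1.17 and 2.00 in luciferase water, and M2 lay within the luciferase ethanol range. None of 3 VPS10 receptors passed, Sort1 averaging 505 ± 54.2 in luciferase ethanol (SD, n = 3) and 565 ± 154 in luciferase water (SD, n = 5); Sorl1 (1.45) passed with only those groups in the fit (limma adjusted p = 0.00678). Sort1 averaged 1034 ± 145 in LbNOX ethanol, higher than in luciferase ethanol (log2 difference 1.03, SE 0.23, limma adjusted p = 0.0182), where 2.24% of all genes were called higher. None of 8 hedgehog genes passed, with Gas1, a hedgehog co-receptor, at 451 ± 160 in luciferase ethanol (SD, n = 3) and 231 ± 115 in luciferase water (SD, n = 5; limma adjusted p = 0.161).

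**Figure D3:**
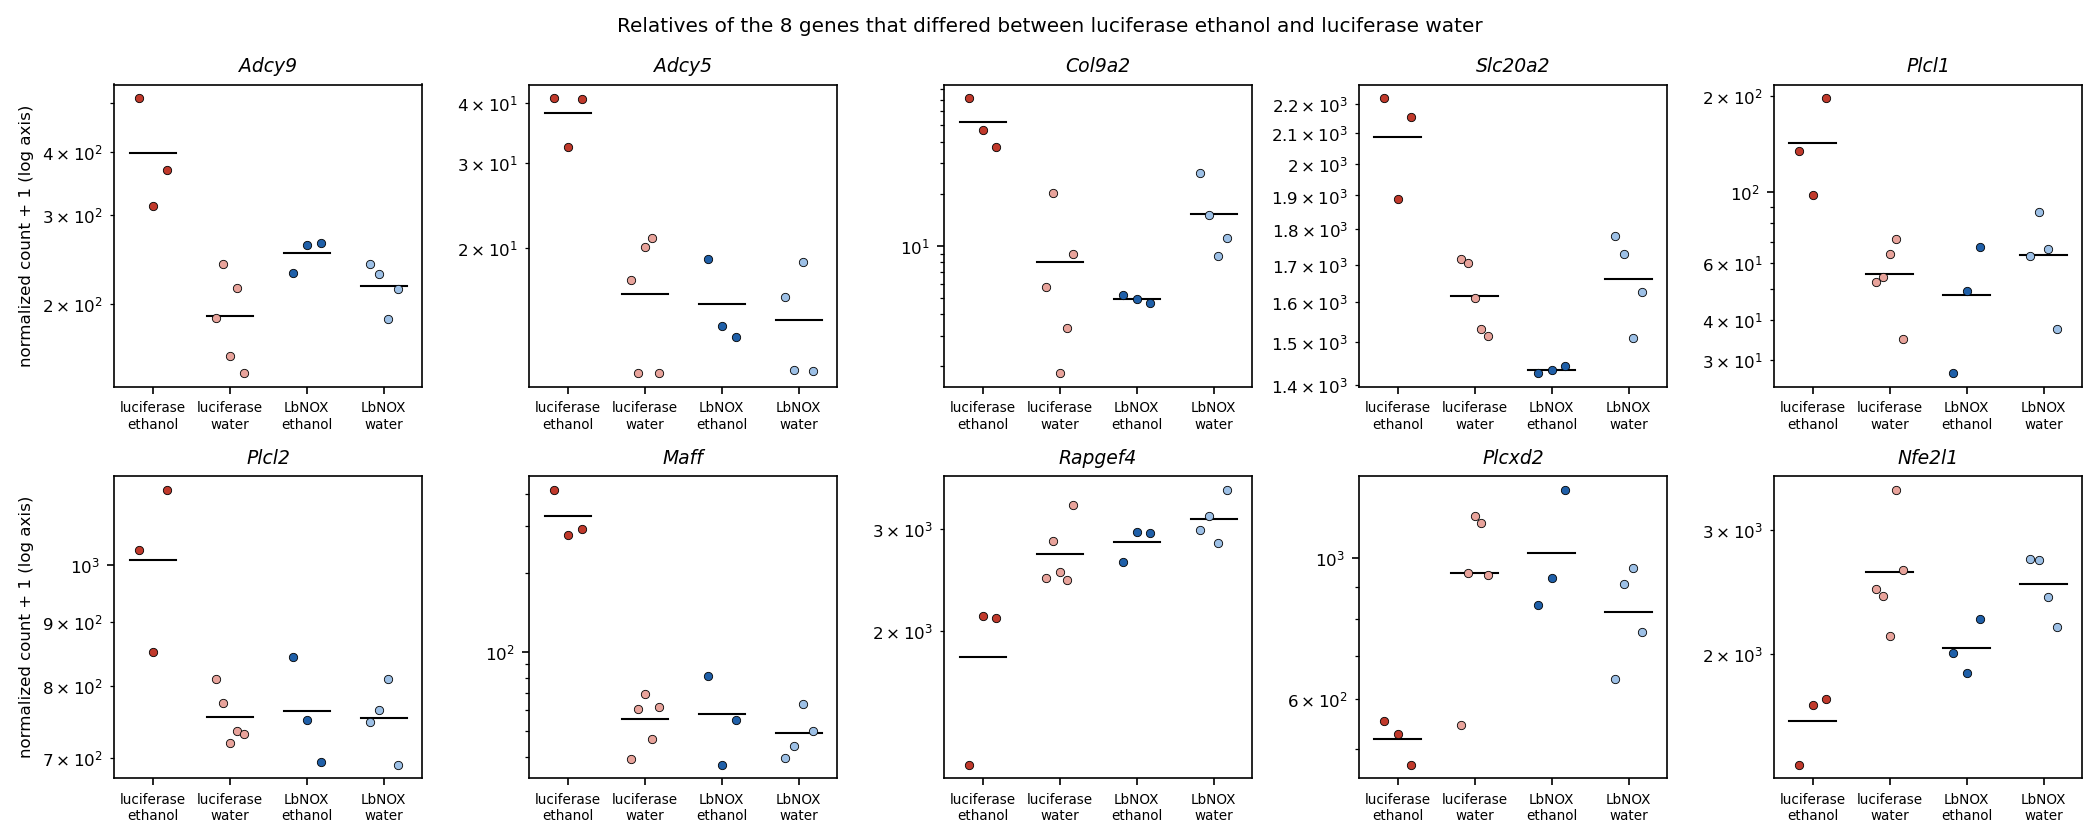
Normalized count plus 1 (log axis, scaled per panel) of the 10 relatives that passed the test between luciferase ethanol and luciferase water, with 1 point per library and a bar at the group mean. Maff and Col9a2 show the largest differences, and LbNOX ethanol points lie near or below the water points for both.

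The genes lie on 5 chromosomes, and their neighbours were measured to see whether a region moved. Adcy10 (chromosome 1, 165485183 to 165576774) and Rgs16 (chromosome 1, 153740349 to 153745468) share a chromosome, as do Sorcs2 (36017180 to 36398139), Slc34a2 (53038081 to 53071664) and Plcxd1 (110099969 to 110105953) on chromosome 5, all in GRCm38. Col9a3 lies on chromosome 2 (180597790 to 180622189), Nfe2l3 on chromosome 6 (51432670 to 51458768) and Hhipl1 on chromosome 12 (108306270 to 108330869). Of 32 nearest neighbours, 29 were tested and 2 rose in luciferase ethanol against luciferase water (6.90%, where 4.62% of all genes were higher); none fell.

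Both neighbours that rose did so by less than 1 on the log2 scale. Dcaf6, 24.7 kb from Adcy10, had 844, 925 and 880 normalized counts in luciferase ethanol, against 387 to 633 in luciferase water (0.80, SE 0.14, limma adjusted p = 0.00289). Mrgbp, 11.5 kb from Col9a3, had 174, 181 and 167, against 63.6 to 114 (0.84, SE 0.22, adjusted p = 0.0291). The call of Mrgbp was lost without M1, M2, M10, M11 or M12 (0.0506 to 0.108) and with only the groups compared (0.0650). Mpc2, 3.97 kb from Adcy10 and a subunit of the mitochondrial pyruvate carrier, did not pass (0.42, SE 0.20, adjusted p = 0.249). Hnrnpa2b1, 2.16 kb from Nfe2l3, differed by 0.05 (SE 0.13, adjusted p = 0.900).

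**Figure D4:**
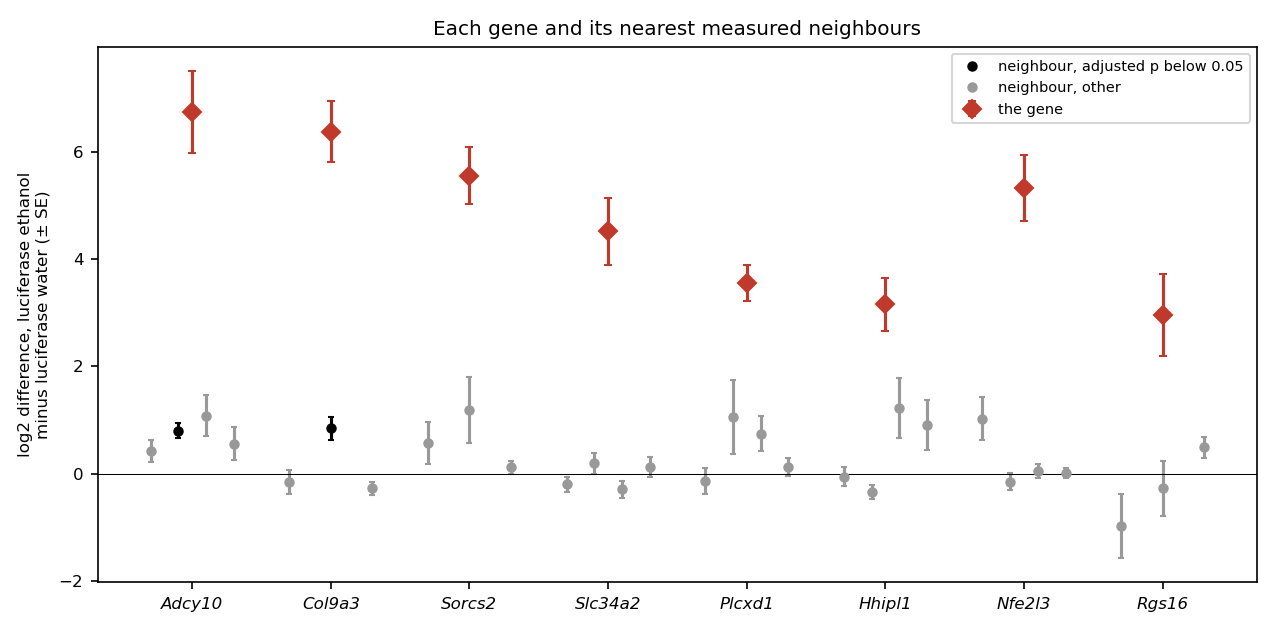
Log2 difference, luciferase ethanol minus luciferase water, with its SE, for each gene (diamonds, shown as a description) and its tested neighbours (circles, black where the adjusted p was below 0.05). The 8 genes lie at 2.95 or more, and the 2 neighbours that passed at 0.80 and 0.84.

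The genes are known from tissues other than liver, so the markers of those tissues were read beside them. Of 8 testis markers 1 was in the table, with a summed level of 12.1 to 37.4 normalized counts in luciferase ethanol and 34 to 65.4 in luciferase water. Of 8 cartilage markers 3 were in the table, Comp at 0 in luciferase ethanol, and their sum was 15.7 to 57.3 in luciferase ethanol and 13.3 to 23.5 in luciferase water. Lung epithelium had 4 of 8 markers in the table, summing to 37.3 to 54.5 in luciferase ethanol and 26.4 to 39.9 in luciferase water. Of the 8 neuronal markers, 5 were in the table, with sums of 97.2 to 146 in luciferase ethanol and 145 to 379 in luciferase water. The 7 bile duct markers in the table summed to 1052 to 1334 in luciferase ethanol and 968 to 1913 in luciferase water. Although these sums overlapped, the median log2 difference of the 7 bile duct markers was 1.21, against 0.01 for all genes. The medians were 0.90 for cartilage (2 tested), 0.09 for lung (3 tested), -0.83 for testis (1 tested) and -1.15 for neuronal markers (2 tested). Hepatocyte markers, 8 of 8 in the table, summed to 719996 to 910555 in luciferase ethanol and 695413 to 858935 in luciferase water. None of the testis, cartilage, lung, neuronal or bile duct markers passed the limma test. The cartilage marker Col11a2 had 6.05, 33.8 and 42.4 normalized counts in M10, M11 and M12, against 4.54 to 10.8 in luciferase water. DESeq2 called it higher (log2 difference 1.95, adjusted p = 0.0395), as did limma without M10 (2.33, adjusted p = 0.0425). The part of these markers' tissues in the levels of the 8 genes was not tested.

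The pattern was shared by other genes. Counting genes with a mean below 50 normalized counts in both water groups, all 3 luciferase ethanol libraries above the 12 others and a luciferase ethanol mean at least 8 times that of luciferase water gave 53 genes, 7 of them members. Of the others, 2 were at 0 in every luciferase water library and were kept without a ratio. Rgs16 lay outside, by its water level and its ratio of 6.51; Hhipl1, at 8.77, lay just inside. Among the 53, 19 exceeded 100 normalized counts in luciferase ethanol and 7 of those were the members, so the 8 were drawn from the more abundant end. Leaving out M11 gave 106 such genes, and M11 as the lone luciferase ethanol library gave 87.

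**Figure D5:**
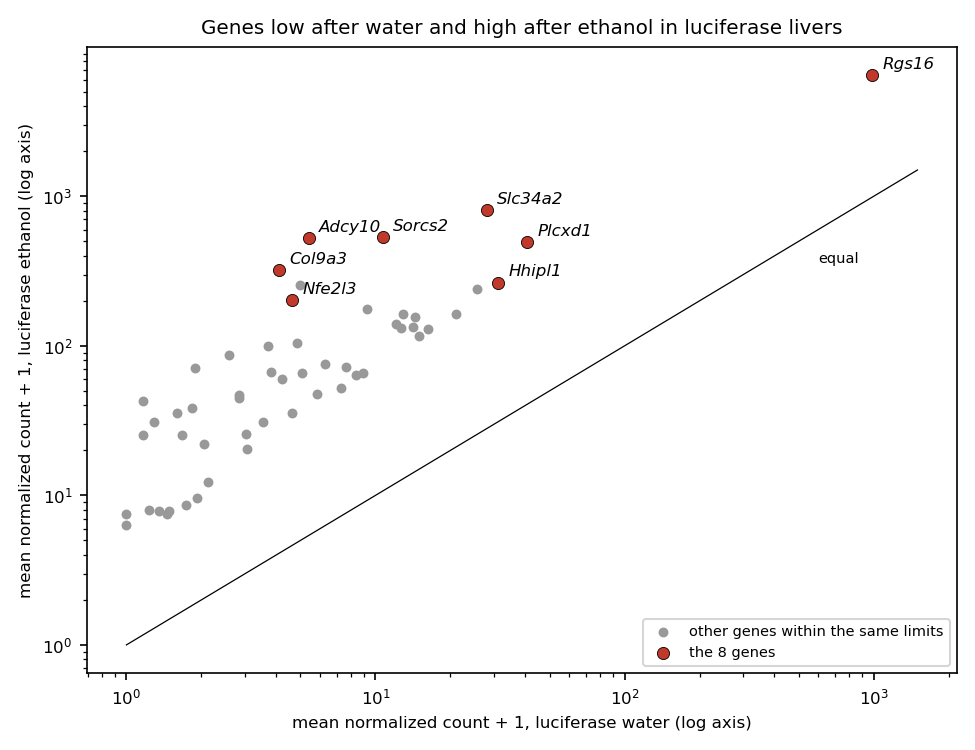
Mean normalized count plus 1 in luciferase ethanol against luciferase water (log axes) for the 53 genes within the limits and Rgs16; the line marks equal levels. The 7 members within the limits lie toward the upper edge of the cloud, and Rgs16 lies apart at 987 normalized counts in luciferase water.

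By profile over the 15 libraries, the genes most like the mean of the 8 standardized log2 profiles were Tha1 (Pearson r = 0.99), Acly, Fgfrl1, Derl1, Klf10, Lrrc28, Gpi1, Ank, Tars and Ddhd2 (r = 0.97). They share the same libraries and the same high luciferase ethanol group, so r is a description. All 10 averaged 88.9 normalized counts or more in luciferase water, above the means of 7 of the 8 genes. Acly, ATP citrate lyase, averaged 24197 ± 9275 normalized counts in luciferase ethanol (SD, n = 3) and 3558 ± 380 in luciferase water (SD, n = 5). Tha1, threonine aldolase, averaged 736 ± 208 in luciferase ethanol (SD, n = 3) and 88.9 ± 24.0 in luciferase water (SD, n = 5). Of the 8 genes, Plcxd1 was closest to the shared profile (r = 0.98) and Rgs16 the farthest (r = 0.86). Each of the 8 is itself part of that mean profile, so its r cannot be compared with that of Tha1 or the other genes.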

How the data were processed

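Liver mRNA libraries (KAPA mRNA kit, per the labels' protocols) were deposited by the authors as normalized counts, a signal in which gene counts are divided by a size factor for each library. Salmon 1.5.1, DESeq2 1.30.1 and build mm10 are named per the submitters' processing notes, without their roles. Whole reads were recovered by dividing by the value of 1 read: 100.0% of 244950 values came out whole within 0.01 read, and size factors were 0.723 to 1.67. The recovered totals per library limit the precision of scarce genes, and intervals cover counting error only. The strand used in counting is not given in the sources used here.

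Genes with at least 10 normalized counts in at least 3 libraries (13570 of 16330) were fitted with limma 3.58.1 in R 4.3.3 on log2(normalized count + 1), with a mean-variance trend and robust variance, in 1 fit of the 4 groups. Fold changes are on that scale and understate changes of low genes. P-values were two-sided and adjusted by Benjamini-Hochberg over all 13570 genes, with calls below 0.05. Alternatives were edgeR 4.0.16 and DESeq2 1.42.0 on recovered reads, other pseudocounts, filters and normalization, and each library left out; the procedure was tested on simulated data. The 8 genes and all lists were chosen with earlier results of these data known. The relatives named are up to 4 per list by smallest p, the neighbours the nearest on each side and any that passed, and the look-alikes by profile the 10 with the highest r. Positions and exon lengths came from GENCODE vM21 on GRCm38, in which 15483 symbols matched; 23 names in the table had been turned into dates. No replicate pair was a duplicate (chi-square per degree of freedom 26.5 to 143). A neighbouring gene is not reported here by name, though it is included in the counts. A test of the 8 genes between LbNOX water and luciferase water had been planned; since low water levels were part of their choice, its p-values are not given.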

Additional observations from a re-analysis of the deposited data

Results flagged for a closer look

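In 110 groups of 4 or 5 libraries examined for a value apart from the rest, 12 had one by Dixon's test, and chance gives about 1 in 20; 11 of the 12 are given here. For Col9a3 these were luciferase water library M2, at 7.27 normalized counts, and LbNOX water library M9, at 11.3. Luciferase water library M4 was high for Sorcs2, at 16.4, and for Slc34a2, at 56.3. Library M2 of the same group was also high for Psapl1, at 5.45, and Rgs8, at 9.997, and library M3 for Afap1, at 44.0. In LbNOX water, M8 was high for Mpzl1, at 112, and Tcfl5, at 0.770, and M6 for Sorl1, at 539, while M7 was low for Rgs9, at 11.7. The value of Tcfl5 is 1 read, against 0 in M6, M7 and M9. Dixon's test always sets apart a lone nonzero value among zeros, so nothing is concluded for Tcfl5, and the stated chance rate does not apply to it.

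The ethanol effect with LbNOX was lower than the ethanol effect with luciferase for 3 relatives, by limma's test of the difference. The log2 differences of the 2 effects were -4.62 for Col9a2, -2.38 for Maff and -0.58 for Slc20a2.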

How the results depend on the processing

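Of all genes, 4.62% were called higher in luciferase ethanol than in luciferase water, and 3.82% lower in LbNOX ethanol than in luciferase ethanol. The 8 genes passed in both comparisons in the model used, which the choice of genes fixes, so their counts are a description and no support. Both counts were 4 with a filter of 10 or more in at least 5 libraries, where 4 genes were tested, 3 with luciferase ethanol from M11 alone, and 5 to 8 with each library left out. M11 alone was chosen as an alternative after seeing the data. It gave 1 relative higher, 0 lower, 2 ChREBP targets and 0 neighbours higher, 0 relatives or neighbours with a changed ethanol effect under LbNOX, and 87 look-alikes. Relatives called lower were 3, but 1 without a mean-variance trend, 1 with only the groups compared and 5 by DESeq2. Neighbours called higher were 2, but 1 with only the groups compared, and changed ethanol effects were 3, but 5 by DESeq2. Look-alikes were 53, but 90 at 4 times. With each library left out, relatives higher ranged from 3 to 8, relatives lower from 1 to 3, ChREBP targets from 16 to 19, neighbours higher from 1 to 3, changed ethanol effects from 1 to 4 and look-alikes from 52 to 106. The cause was not tested, except that fewer libraries or genes entered some fits. Between LbNOX ethanol and LbNOX water limma called 1 gene (1571 at an unadjusted p below 0.05), edgeR 1 (1516) and DESeq2 282 (1699); between LbNOX water and luciferase water edgeR called 0 (491 unadjusted) and DESeq2 18 (565). No difference that passed the limma test changed sign in the alternatives run. Of differences that did not pass or were not tested, 24 changed sign in at least 1 alternative, among them LbNOX ethanol minus LbNOX water for Adcy10 (-1.43 to 0.03), Col9a3 (-0.37 to 0.40), Sorcs2 (-0.63 to 0.40), Plcxd1 (-0.05 to 0.40) and Nfe2l3 (-0.25 to 0.53), and LbNOX water minus luciferase water for Col9a3 (-0.27 to 0.53), Slc34a2 (-0.69 to 0.06), Plcxd1 (-0.02 to 0.33), Nfe2l3 (-0.03 to 0.47) and Rgs16 (-0.22 to 0.87). No paired analysis was possible because the columns carry no replicate number shared between groups. Depth limits Adcy10, Col9a3, Sorcs2 and Nfe2l3 outside luciferase ethanol, where a few reads made up each value.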

Other observations

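Other scarce genes had the same pattern as the 8. Cyp2c53-ps, a cytochrome P450 pseudogene, averaged 255 normalized counts in luciferase ethanol and 3.96 in luciferase water. Fam151a averaged 238 in luciferase ethanol and 24.5 in luciferase water, and Kcnab3, a potassium channel subunit, averaged 174 in luciferase ethanol and 8.25 in luciferase water. Bhlha15, a transcription factor of secretory cells, averaged 139 in luciferase ethanol and 11.1 in luciferase water. These were chosen after their values were seen. How the counting treated reads that a pseudogene shares with near-identical genes is not given in the sources used here.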
